A study of Homo sapiens with 6 samples.

Results

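Zinc finger genes of chromosome 19 were taken as the protein-coding rows of the count table that lie on chromosome 19 and carry a symbol made of ZNF and a number. There were 168 of them among 32353 genes with a row. The rule itself reads only the annotation, but every member had at least 1 read in these libraries, as had every gene with a row, so membership depends on detection. The libraries came from CAL27 cells, an established human line of tongue squamous cell carcinoma. In 3 libraries the cells overexpressed RBM24, an RNA-binding regulator of splicing in heart and skeletal muscle, and in the other 3 they carried a control plasmid. Total RNA was sequenced, no library was pooled, and the labels name neither the vector's promoter nor the time after transfection. They also do not say that replicates came from separate cultures, so any p-value here reflects the spread of these libraries alone, which may be technical. Total RNA of a culture cannot tell fewer expressing cells from less RNA per cell.

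Most zinc finger genes of chromosome 19 belong to the KRAB family. Their proteins pair an array of C2H2 zinc fingers, which read DNA, with a KRAB box that recruits the corepressor TRIM28, which in turn brings the histone methyltransferase SETDB1 and HP1 proteins. Many of them bind and silence retroelements. The genes arose by tandem duplication and stand in clusters along the chromosome, and the promoters of several are known to be methylated in carcinomas.

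The RBM24 libraries held 53558773 to 68804210 gene counts and the control libraries 55139782 to 62156648. In CPM (counts scaled to a common library size), RBM24 itself stood at 120 ± 8.89 (SD, n = 3) in the RBM24 libraries and at 2.93 ± 0.576 (SD, n = 3) in the control libraries. On the first principal component, which held 33.0% of the variance, the RBM24 libraries scored 9.28 to 15.4, control library 1 scored -33.4 and so lay apart, and its 2 fellows scored -4.95 and -0.0363. The 8 epithelial markers, among them KRT5, TP63 and CDH1, summed to 1909 to 1924 CPM in the RBM24 libraries and to 1719 to 1822 CPM in the control libraries, and the part of this difference in the results was not tested. KRT14, a basal keratin, was low at 3.50 to 4.83 CPM over all libraries. The 12 markers of fibroblasts, immune cells and endothelium summed to 39.8 to 41.3 CPM in the RBM24 libraries and to 40.0 to 43.2 CPM in the control libraries, of which CD14, COL1A1 and CDH5 were the larger part, and CD3E and PTPRC stayed at or under 0.0545 CPM in every library.

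Members were expressed at low levels, and few stood out. Of the 168, 132 (78.6%) passed a filter on low counts and were tested. Per gene length, on the deposited FPKM values averaged over 6 libraries, these 132 had a median of 1.39 FPKM, with quartiles of 0.510 and 2.78. The other 833 tested protein-coding genes of the same chromosome had a median of 5.57 FPKM, all other 13657 tested protein-coding genes one of 3.87, and the 202 tested ZNF genes of other chromosomes one of 1.82. These medians describe genes that passed the filter, and genes are not replicates, so no test is given. Of the 132 tested members, 52 lay under 1 FPKM, 9 reached 5 FPKM and 4 reached 10 FPKM. The members together took 0.149% to 0.153% of all counts in the RBM24 libraries and 0.145% to 0.153% in the control libraries. Their summed level was 1493 ± 12.3 CPM in the RBM24 libraries and 1496 ± 14.0 CPM in the control libraries (SD, n = 3 each), a difference smaller than the spread within either group.

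The 6 members with the highest level per length were ZNF146, ZNF787, ZNF581, ZNF428, ZNF121 and ZNF317. ZNF146 (ENSG00000167635.12, GRCh38 chromosome 19, 36214602 to 36238774, plus strand), whose protein consists almost wholly of zinc fingers and has no KRAB box, led with 25.9, 24.9 and 27.5 FPKM in the RBM24 libraries and 27.4, 25.2 and 27.6 FPKM in the control libraries. In CPM it made up 7.43% to 8.04% of the members' summed level in the RBM24 libraries and 7.75% to 8.44% in the control libraries. ZNF787 followed at 13.7 to 14.3 FPKM in the RBM24 libraries and 12.7 to 14.0 FPKM in the control libraries. ZNF581 had 12.0 to 13.1 FPKM in the RBM24 libraries and 11.7 to 11.9 FPKM in the control libraries, and ZNF428 11.4 to 13.3 FPKM in the RBM24 libraries and 9.66 to 11.1 FPKM in the control libraries. ZNF146 lay above ZNF787 in every library, and ZNF787 lay above ZNF581 in every library. ZNF581 and ZNF428 overlapped in the RBM24 libraries, and ZNF581 lay higher in the control libraries. ZNF121 had 8.15 to 8.40 FPKM in the RBM24 libraries and 7.86 to 8.99 FPKM in the control libraries. It lay below ZNF428 and above ZNF317 in every library. ZNF317, a KRAB gene, had 7.59 to 7.90 FPKM in the RBM24 libraries and 7.09 to 7.68 FPKM in the control libraries. ZNF581 overlaps ZNF580 and CCDC106 on the same strand, so its counts depend on how the authors' counter shared reads. None of the 6 passed the test between the groups, with log2 fold changes from -0.07 for ZNF146 to 0.21 for ZNF428 (edgeR adjusted p = 0.248 for ZNF428).

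At the other end stood members with next to no reads. The summed count over all 6 libraries was under 10 for 30 of the 168 members (17.9%), and 20 of these had a single read in the whole experiment. Another 6 members (ZNF439, ZNF69, ZNF763, ZNF709, ZNF614 and ZNF534) had 12 to 45 reads in all and did not pass the filter either. The lowest tested member, ZNF816, had 79. A summed count under 10 was found for 7 of the 213 ZNF genes of other chromosomes (3.29%), for 110 of the other 1046 protein-coding genes of chromosome 19 (10.5%) and for 1744 of all other 16851 protein-coding genes (10.3%). These are shares of genes that have a row in the count table: GENCODE 29 names 240 protein-coding genes of this pattern on chromosome 19, of which 167 have a row, with 1 more member under the name HKR1 there, and the remainder were not analysed here. The 30 members had 14, 9 and 14 reads in all in the RBM24 libraries and 11, 4 and 5 in the control libraries. A count of 0 over the 3 RBM24 libraries allows up to 0.0164 CPM, and over the 3 control libraries up to 0.0173 CPM (3 counts of the group's total, counting error only), and no fold change is given for these genes.

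Many of the members with almost no reads lay next to each other. When the chromosome was divided wherever more than 1 Mb separated neighbouring members, 16 blocks resulted, and 160 members lay in the 9 blocks that held 5 or more. In the block that runs from ZNF175 to ZNF331 (chromosome 19, 51571298 to 53580269), 13 of 28 members had under 10 reads. In the block from ZNF565 to ZNF607 (36182060 to 37719790) it was 6 of 11. The blocks from ZNF653 to ZNF791 (11483427 to 12640098) and from ZNF101 to ZNF738 had 4 of 19 and 2 of 9. These 2 shares, 21.1% and 22.2%, lay near the 17.9% of all members. In the largest block, from ZNF628 to ZNF446 (55476332 to 58481230), it was 4 of 47, and in the block from ZNF575 to ZNF296 (43525497 to 45076588) 0 of 22. In all, 21 of the 30 formed 8 runs of 2 to 4 members that follow each other with no better expressed member between them. Genes of this pattern without a row are not members and may lie between. Whether runs are more frequent than in a random order was not tested. The longest run was ZNF529, ZNF382, ZNF567 and ZNF829, between 36534774 and 36916291, each with 1 read in 6 libraries. ZNF146, the member with the highest level, lies at lower coordinates in the same block, with no other member between. Runs of 3 were ZNF610, ZNF880 and ZNF528, then ZNF83, ZNF611 and ZNF28, and then ZNF160, ZNF665 and ZNF677.

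**Figure D1:**
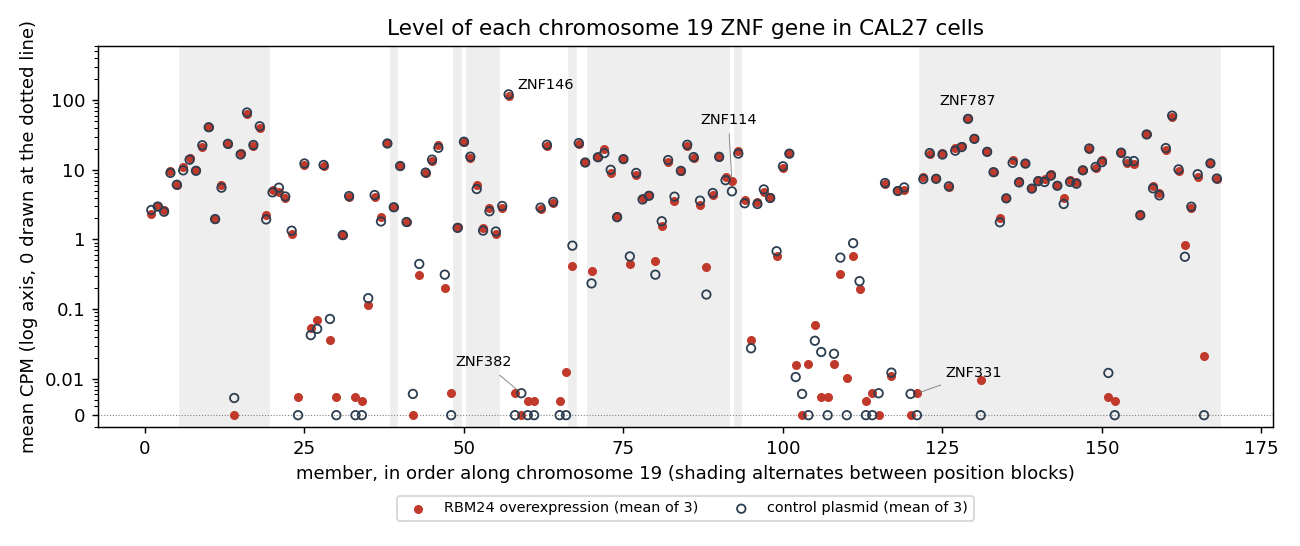
Mean level of each of the 168 members in CPM on a log axis, in their order along the chromosome; filled points are the mean of 3 RBM24 libraries, open points the mean of 3 control libraries, and values of 0 sit on the dotted line. Groups of neighbouring members lie near 0, and ZNF146 stands highest at 116 CPM in the RBM24 libraries and 121 CPM in the control libraries.

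**Figure D2:**
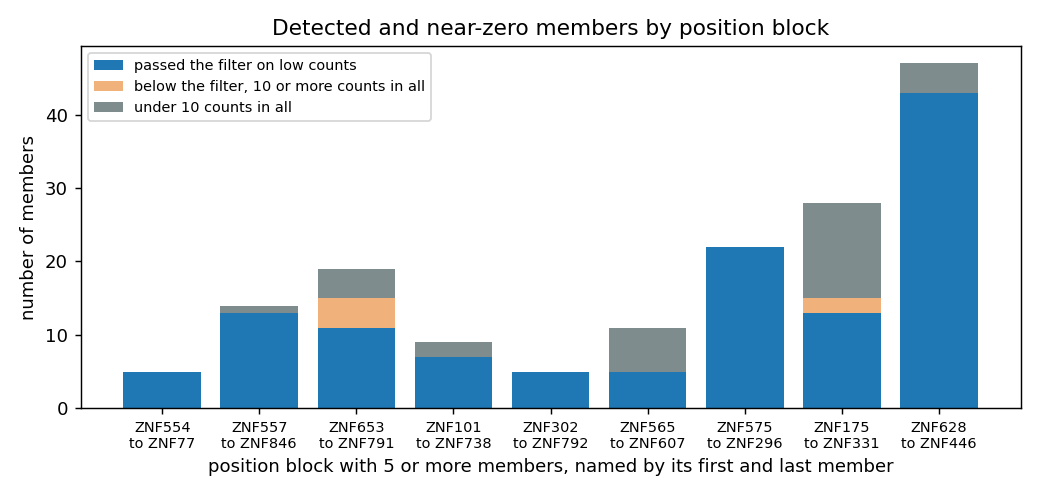
Number of members in each position block with 5 or more members, split into those that passed the filter on low counts, those below it with 10 or more reads in all, and those with under 10 reads over 6 libraries. The block from ZNF175 to ZNF331 holds 13 members with under 10 reads, and the block from ZNF575 to ZNF296 holds 0.

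Gene overlaps were counted because neither the counter nor its strand setting is known. Of the 30 members with under 10 reads, 9 (30.0%) overlap another GENCODE 29 gene on the same strand and 16 (53.3%) one on the opposite strand, against 59 (42.8%) and 67 (48.6%) of the 138 other members. Overlap on the same strand with a tested gene of higher count was found for 4 of the 30, ZNF28, ZNF320, ZNF525 and ZNF813, and for 12 of the 132 tested members. No overlap on either strand was found for 8 of the 30, among them ZNF331, ZNF160 and ZNF132. KRAB genes of one cluster are close paralogs, and the sources used here do not say how reads that map to several of them were handled, so its part in the near-zero counts was not tested.

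Among the genes known for promoter methylation in carcinomas, 8 of the 11 listed had a row, and 7 of these 8 were near 0. Over all members, 30 of 168 (17.9%) had under 10 reads. The list was set with earlier results of these data known, so its share is a description. ZNF331, which is imprinted in some tissues, had 0, 1 and 0 reads in the RBM24 libraries and 0, 0 and 0 in the control libraries. ZNF382, a KRAB repressor studied as a tumour suppressor, had 0, 0 and 0 reads in the RBM24 libraries and 0, 1 and 0 in the control libraries. ZNF582 and ZNF671, both used as methylation markers of squamous carcinoma, had 2, 0 and 0 and 1, 0 and 0 reads in the RBM24 libraries, and both had 0 reads in every control library. ZNF132, ZNF154 and ZNF160 had 4, 3 and 1 reads in all. The exception was ZNF14, with 1.81 ± 0.333 CPM in the RBM24 libraries and 1.78 ± 0.269 CPM in the control libraries (SD, n = 3 each). Methylation was not measured here. Of the 4 genes listed for binding retroelements 1 had a row: ZNF765 stood at 5.20 ± 0.583 CPM in the RBM24 libraries and 4.96 ± 0.478 CPM in the control libraries (SD, n = 3 each; log2 fold change 0.07, edgeR adjusted p = 0.842).

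The promoters of near-zero and expressed members are set side by side because they share a CpG-rich base composition. RefSeq windows of 300 bases (GRCh38.p14, 250 before the start and 50 after it) were matched by symbol for 149 members. The 250 bases before the start are printed 5' to 3' on the plus strand, on which all 4 genes lie, with every CG pair in capitals. These 4 were picked after their counts were seen. The first pair comes from one block, the expressed ZNF146 (chr19:36214856-36215105) with 17 CG pairs and the near-zero ZNF382 (chr19:36605063-36605312) with 24. The second pair comes from another block, the expressed ZNF765 (chr19:53394899-53395148) with 18 and the near-zero ZNF331 (chr19:53520764-53521013) with 14.
ZNF146: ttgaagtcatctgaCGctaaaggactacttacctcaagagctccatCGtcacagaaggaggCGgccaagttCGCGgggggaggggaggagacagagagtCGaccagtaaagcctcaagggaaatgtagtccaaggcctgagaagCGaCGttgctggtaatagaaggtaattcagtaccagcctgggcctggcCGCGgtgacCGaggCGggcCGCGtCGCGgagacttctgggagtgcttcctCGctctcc
ZNF382: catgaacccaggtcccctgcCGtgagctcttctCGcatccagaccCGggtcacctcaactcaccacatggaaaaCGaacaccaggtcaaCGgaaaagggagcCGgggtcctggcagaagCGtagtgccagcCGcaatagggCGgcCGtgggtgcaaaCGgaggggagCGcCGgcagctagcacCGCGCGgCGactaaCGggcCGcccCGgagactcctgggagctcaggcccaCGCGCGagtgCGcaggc
ZNF765: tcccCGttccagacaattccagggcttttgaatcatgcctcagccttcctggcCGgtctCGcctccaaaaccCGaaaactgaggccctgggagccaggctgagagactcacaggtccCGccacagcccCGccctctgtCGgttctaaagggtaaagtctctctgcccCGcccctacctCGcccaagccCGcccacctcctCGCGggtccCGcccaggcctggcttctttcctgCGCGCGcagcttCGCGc
ZNF331: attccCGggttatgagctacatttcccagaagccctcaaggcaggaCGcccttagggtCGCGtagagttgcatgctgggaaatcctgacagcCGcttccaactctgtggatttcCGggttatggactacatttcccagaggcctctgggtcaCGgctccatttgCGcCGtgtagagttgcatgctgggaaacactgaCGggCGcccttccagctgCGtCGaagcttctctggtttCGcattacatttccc

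Over the whole windows, the observed-to-expected CpG ratio (CG pairs times length, divided by the product of C and G counts) had a median of 0.719 in the 26 matched members with under 10 reads and of 0.786 in the 118 matched tested members, and the median GC content was 61.0% in both. Among other protein-coding genes, the median ratio was 0.354 for 1217 genes with under 10 reads and 0.833 for 10690 tested genes. The median ratio was lower in barely detected than in tested genes in both comparisons, by less among members.

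Member promoters also repeat short stretches, and which ones differed with position on the chromosome. On either strand, the stretches of 10 bases held by the most member windows were taken, leaving out those in 1% or more of all windows and those that share 6 bases in a row with one already taken, until there were 4. They were picked for their frequency in members and their rarity over all windows, which include those of members. Both shares are therefore a description. The first is TCCAATCAGG, which holds the letters of a CCAAT box, and it was in 22 of 149 member windows (14.8%), in 10 of 173 windows of ZNF genes of other chromosomes (5.78%) and in 106 of all 27305 windows (0.388%). The second is GGACTTCCGG, which holds the core letters of an ETS family site, in 16 member windows (10.7%), 1.73% of the windows of ZNF genes of other chromosomes and 0.425% of all windows. TGAGTGACAG was in 14 member windows (9.40%), 4.05% of the other ZNF windows and 0.385% of all windows, and TGGGCGGGAC, which holds the letters of a GC box, was in 14 (9.40%), 1.16% and 0.491%.

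All 22 members with TCCAATCAGG and all 14 with TGAGTGACAG lie in the first 6 blocks, up to position 23687220, where 46 members have a window, and none of the 103 members with a window in the last 10 blocks, from 32345594 on, holds either. All 16 with GGACTTCCGG and all 14 with TGGGCGGGAC lie in the last 10 blocks and none in the first 6. The first pair of stretches stood together in 10 windows without overlapping, and the second pair stood together, overlapping, in 5. In total 51 of the 149 windows held at least 1 of the 4. Many members are duplicates of their neighbours, so shared promoter letters are not independent counts. Near-zero and tested members both held the stretches. TCCAATCAGG was in 2 of 26 windows of members with under 10 reads and in 19 of 118 windows of tested members, GGACTTCCGG in 2 and 14, TGAGTGACAG in 4 (15.4%) and 8 (6.78%), and TGGGCGGGAC in 3 and 11. The median level of tested members was 1.22 FPKM with TCCAATCAGG and 1.44 FPKM without it, 1.31 FPKM with GGACTTCCGG and 1.41 FPKM without it, 1.17 FPKM with TGAGTGACAG and 1.41 FPKM without it, and 0.905 FPKM with TGGGCGGGAC and 1.498 FPKM without it.

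Few members differed between RBM24 overexpression and the control plasmid beyond the spread of the libraries. Of the 132 tested members 1 (0.758%) rose, against 0.855% of all tested genes and 1.02% of tested protein-coding genes, and 0 fell, against 0.682% and 0.827%. In either direction 1.54% of all tested genes and 1.84% of tested protein-coding genes were called. The threshold was 0.05 on edgeR's quasi-likelihood p after Benjamini-Hochberg adjustment over 17887 genes. Without adjustment, 10 members had p under 0.05, or 7.58%, against 14.3% of tested protein-coding genes. DESeq2 called the same single member and limma on the deposited FPKM values called 0. Libraries did not overlap between the groups for 18 members (13.6%), 9 in each direction, against 18.1% of all tested genes. With no filter on low counts, 2 members were called higher and 1 lower. Without RBM24 library 1 the count was 0, and without control library 3 it was 2 higher.

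The member that rose was ZNF114 (ENSG00000178150.10, GRCh38 chromosome 19, 48270102 to 48287608, plus strand), a KRAB zinc finger gene that stands alone in its block. It had 7.44, 6.52 and 6.50 CPM in the RBM24 libraries and 4.76, 5.24 and 4.70 CPM in the control libraries. The lowest RBM24 library exceeded the highest control library, and the mean was 6.82 ± 0.538 CPM in the RBM24 libraries and 4.90 ± 0.297 CPM in the control libraries (SD, n = 3 each). The log2 fold change was 0.48 (SE 0.0943, 95% interval 0.28 to 0.68; edgeR adjusted p = 0.0156), or 1.39-fold. In FPKM it stood at 2.12 ± 0.150 in the RBM24 libraries and 1.49 ± 0.0833 in the control libraries (SD, n = 3 each). The call was lost without RBM24 library 1 (log2 fold change 0.41, edgeR adjusted p = 0.106) and with limma on log2(FPKM + 1) (0.33, adjusted p = 0.0788). The antisense gene ZNF114-AS1 overlaps it, and with the strand setting unknown reads of both cannot be told apart.

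The rule for naming members took those whose libraries did not overlap at a mean log2 CPM of 1 or more, 6 at each end. Of the 12, only ZNF114 passed the test. Higher values in every RBM24 library were found, after ZNF114, for ZNF549, ZNF181, ZNF557, ZNF551 and ZNF431. ZNF549 had 3.65, 3.88 and 4.22 CPM in the RBM24 libraries and 3.62, 3.16 and 2.91 CPM in the control libraries. Its log2 fold change was 0.28 (SE 0.114; edgeR adjusted p = 0.295), so the groups were barely apart and the test was not passed. ZNF181 had 5.87, 5.64 and 6.81 CPM in the RBM24 libraries and 5.44, 5.24 and 5.21 CPM in the control libraries (log2 fold change 0.21, adjusted p = 0.375). For ZNF557, ZNF551 and ZNF431 the log2 fold changes were 0.17, 0.12 and 0.11, with adjusted p from 0.369 to 0.527. Lower values in every RBM24 library were found for ZNF552, ZNF584, ZNF155, ZNF274, ZNF562 and ZNF586, with log2 fold changes from -0.15 to -0.06 and adjusted p from 0.412 to 0.774. ZNF552 had 12.1, 12.3 and 11.8 CPM in the RBM24 libraries and 13.1, 14.3 and 12.6 CPM in the control libraries. ZNF274, a KRAB protein known to bind the 3' ends of other zinc finger genes and to recruit SETDB1 there, had 19.4, 19.7 and 18.8 CPM in the RBM24 libraries and 20.4, 19.9 and 21.2 CPM in the control libraries (log2 fold change -0.09, SE 0.0622; edgeR adjusted p = 0.602). The lowest control library of ZNF274 lay only just above its highest RBM24 library. ZNF586 overlaps ZNF587B on the same strand, a tested gene of higher count, so its value is uncertain.

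**Figure D3:**
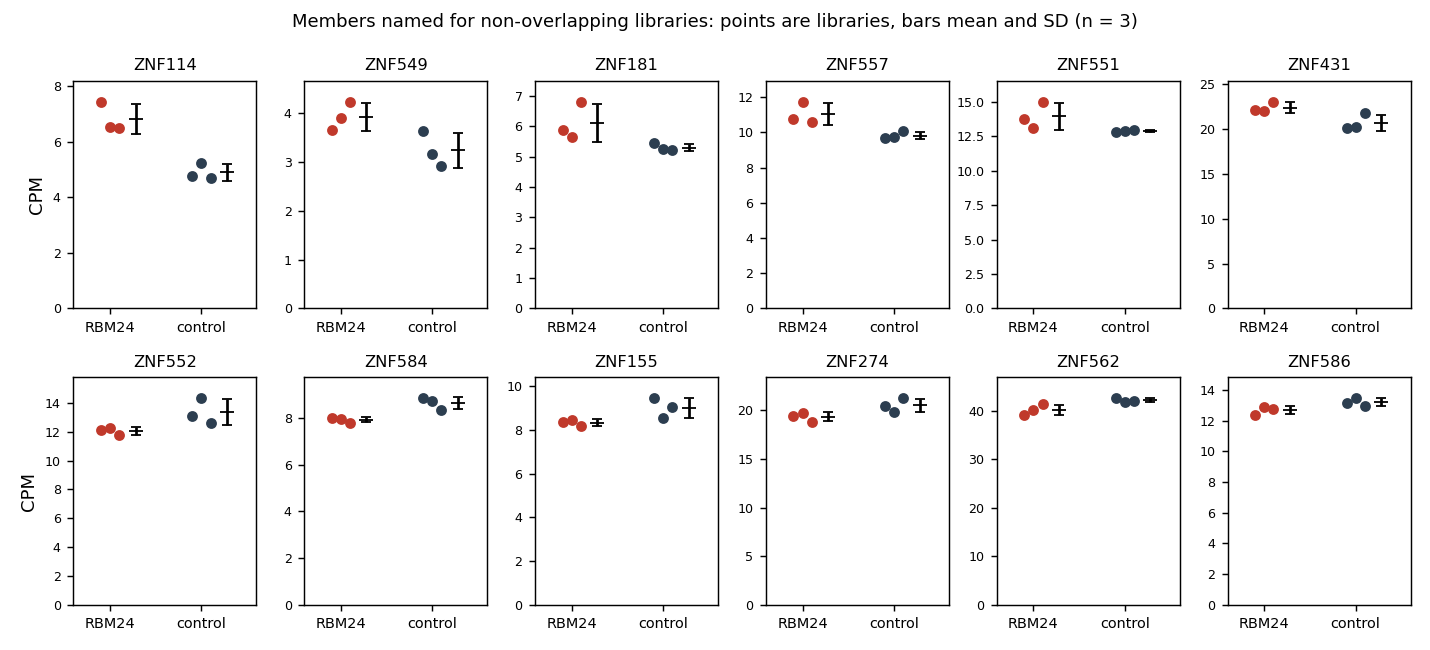
CPM of the 12 members named for libraries that did not overlap, 6 higher in the upper row and 6 lower in the lower row; each point is a library, RBM24 left of control, and the bar beside the points is the mean with its SD (n = 3). ZNF114 shows the widest gap, at 6.82 CPM in the RBM24 libraries and 4.90 CPM in the control libraries, and the 6 genes of the lower row differ by little.

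Fold changes of members lay around 0, as did those of other genes of like level, except at the lowest levels. The median log2 fold change of the tested members was 0.00 (quartiles -0.07 and 0.07), with 69 above 0 and 63 below. It was 0.00 (-0.07 and 0.07) for all other tested protein-coding genes, 0.01 for the other tested protein-coding genes of chromosome 19 and 0.00 for the ZNF genes of other chromosomes, of which 0 of 202 were called (13 with an unadjusted p under 0.05; edgeR). For a comparison at like level, genes between the members' quartiles of mean log2 CPM, 1.71 and 3.87, were taken. There the median was 0.02 in 66 members (quartiles -0.07 and 0.09) and -0.01 in 2548 other protein-coding genes (-0.09 and 0.08). The median standard error was 0.0918 in those members and 0.0891 in the others, 1.52% and 1.96% of them were called, and 16.7% and 19.6% had libraries that did not overlap. In the well-filled levels, medians of members and of other protein-coding genes lay close together. Between a mean log2 CPM of 2 and 3 they were 0.04 for 30 members and -0.01 for 1017 others, between 3 and 4 they were -0.01 for 32 and -0.01 for 1521, and between 4 and 5 they were 0.00 for 22 and -0.01 for 2337. Below a mean log2 CPM of 0 only 12 members were tested. Their medians were -0.42 for 7 members between -2 and -1 (quartiles -0.56 and 0.58) and -0.38 for 5 members between -1 and 0 (quartiles -0.60 and -0.23). In 624 and 652 other genes of these levels the medians were 0.05 (quartiles -0.21 and 0.35) and 0.03 (quartiles -0.19 and 0.25). Median standard errors were 0.360 and 0.262 in those members and 0.340 and 0.242 in the other genes. The difference in medians was not tested.

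The intervals of the fit were taken gene by gene, without adjustment, and reflect the spread of these libraries alone. They cover tested members only. The 95% interval of the fold change lay within 1.5-fold in either direction for 117 of the 132 tested members. Of the 91 members at a mean log2 CPM of 2 or more, 90 had such an interval, ZNF114 being the exception, and their log2 fold changes ran from -0.19 to 0.48. Among the blocks with 5 or more members, the median log2 fold change ran from -0.08 in the block from ZNF175 to ZNF331 to 0.11 in that from ZNF302 to ZNF792. In the block from ZNF628 to ZNF446, 30 of 43 tested members lay above 0 with a median of 0.03, and in the block from ZNF575 to ZNF296, 8 of 22 lay above 0 with a median of -0.01. All 5 tested members of the block from ZNF565 to ZNF607 lay below 0, between -0.09 and -0.04, and none of them passed. Of all other tested protein-coding genes, 48.3% lay above 0. A difference between blocks was not tested.

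**Figure D4:**
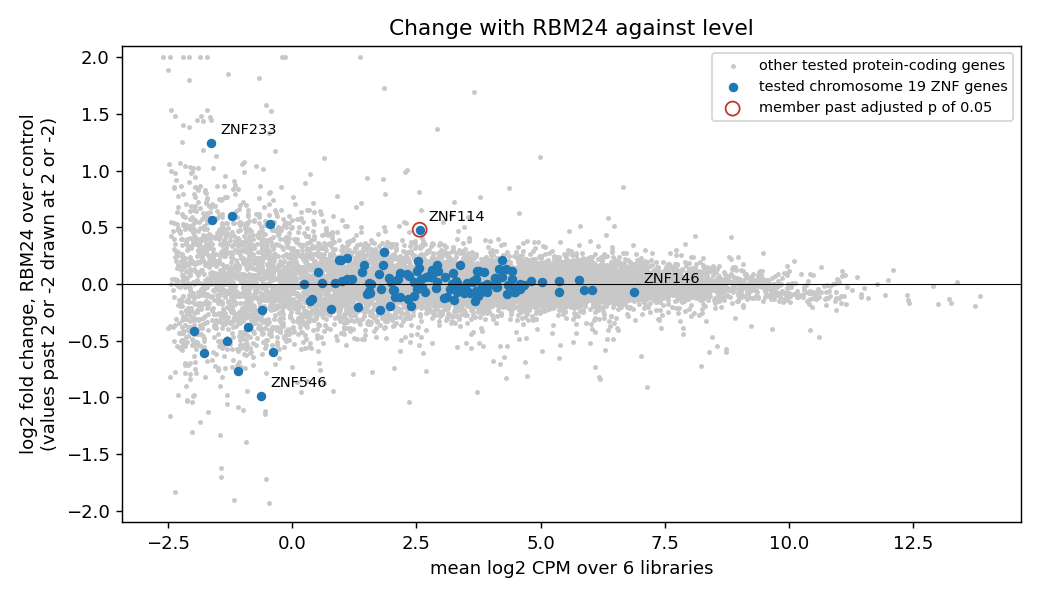
Log2 fold change of RBM24 over control plasmid against mean log2 CPM; grey points are other tested protein-coding genes (RBM24 itself left out, values past 2 or -2 drawn at the edge), blue points the 132 tested members, and the ring marks the member past the threshold. From a mean log2 CPM of 0 upwards, members follow the cloud of other genes, and ZNF114 lies at 0.48. Below it the few tested members scatter more widely. Their medians there were -0.42 between -2 and -1 and -0.38 between -1 and 0, against 0.05 and 0.03 for other genes. The quartiles of the members were -0.56 and 0.58 in the lower of these levels and -0.60 and -0.23 in the upper.

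The members with the widest fold changes were barely detected. All 9 members with a wider fold change than ZNF114 had a mean log2 CPM below 0, fall outside the naming rule and were picked after their values were seen. ZNF546, alone in its block, had 23, 20 and 33 reads in the RBM24 libraries and 40, 36 and 66 reads in the control libraries. All RBM24 libraries lay below all control libraries, at 0.413 ± 0.108 CPM in the RBM24 libraries and 0.815 ± 0.204 CPM in the control libraries (SD, n = 3 each), yet the log2 fold change of -0.99 (SE 0.268) did not pass (edgeR adjusted p = 0.0880). It passed with no filter on low counts (adjusted p = 0.00875). ZNF233 had 26, 16 and 32 reads in the RBM24 libraries and 5, 5 and 19 in the control libraries (log2 fold change 1.25, SE 0.427; edgeR adjusted p = 0.199). Its groups overlapped in reads and in CPM, and it passed without control library 3 (log2 fold change 2.09, adjusted p = 0.0320) and with no filter (1.25, adjusted p = 0.0433). ZNF468, which overlaps ZNF28 and ZNF320 on the same strand, had 27, 14 and 19 reads in the RBM24 libraries and 25, 29 and 41 in the control libraries, and ZNF888, of the same block, had 32, 36 and 39 in the RBM24 libraries and 59, 39 and 54 in the control libraries. Scaled to library size neither gene's groups overlapped, but the test was not passed, with log2 fold changes of -0.77 and -0.60 (adjusted p = 0.232 and 0.267). ZNF497 had 52, 43 and 56 reads in the RBM24 libraries and 31, 30 and 36 in the control libraries, a log2 fold change of 0.53 (adjusted p = 0.282). The other 4 were ZNF708 (-0.61), ZNF223 (0.60), ZNF575 (0.57) and ZNF90 (-0.50 on the log2 scale), whose groups overlapped and whose adjusted p ran from 0.453 to 0.564 (edgeR).

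Corepressors of KRAB proteins, listed together with other chromatin genes such as DNMT1, had group means from 32.4 to 568 CPM and did not pass the test. All 19 listed genes were tested and 0 were called, against 1.54% of all tested genes (edgeR). Libraries did not overlap for 3 of them, against 18.1% of all tested genes. Their log2 fold changes ran from -0.10 to 0.18 with a median of 0.03. The scaffold TRIM28 had 494, 481 and 454 CPM in the RBM24 libraries and 428, 502 and 469 CPM in the control libraries (log2 fold change 0.03, SE 0.0615; edgeR adjusted p = 0.888). Its groups overlapped. CBX1, which encodes the beta form of HP1, had 126, 123 and 125 CPM in the RBM24 libraries and 116, 108 and 107 CPM in the control libraries. The groups did not overlap and the log2 fold change was 0.18 (SE 0.0491; edgeR adjusted p = 0.0919), past the threshold with DESeq2 (0.18, adjusted p = 0.0309), with total counts as the only scaling (0.21, adjusted p = 0.0386) and without control library 1 (0.22, adjusted p = 0.0431). DNMT1, the maintenance DNA methyltransferase, had 242, 236 and 247 CPM in the RBM24 libraries and 206, 218 and 234 CPM in the control libraries (log2 fold change 0.14, adjusted p = 0.276). HDAC1, a histone deacetylase, had 248, 246 and 247 CPM in the RBM24 libraries and 258, 261 and 258 CPM in the control libraries. Every RBM24 library lay below the lowest control library, and the test was not passed (log2 fold change -0.07, SE 0.0465; edgeR adjusted p = 0.555).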

How the data were processed

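Alignment used HISAT2 and GRCh38, per the submitters' processing notes; for the counter, annotation release and strand setting nothing is given in the sources used here. The deposited count table holds the authors' raw counts per gene. The deposited FPKM table holds values that the authors divided by gene length and library size and rounded to 2 decimals. Table columns named NC were taken for the control plasmid, OE_RBM24 for overexpression. The test ran in edgeR 4.0.16 (R 4.3.3): filterByExpr, TMM factors, a quasi-likelihood F test with group alone, and Benjamini-Hochberg adjustment over 17887 genes, called under 0.05. CPM use TMM-scaled totals. Alternatives were RLE, upper-quartile or total-count scaling, a filter at a mean count of 50 or none, limma 3.58.1 on log2(FPKM + 1) and log2(FPKM + 0.1), DESeq2 1.42.0, the replicate block, and each library left out in turn. The edgeR steps were tested on simulated data. Members matched GENCODE 29 (GRCh38) by gene identifier, 168 of 168, which need not be the authors' annotation. Named members are those called, the 6 highest and 6 lowest by fold change whose libraries do not overlap (mean log2 CPM 1 or more), the 6 with the highest FPKM, a methylation and a retroelement panel, and the corepressor list. The members, lists and rules were chosen with earlier results of these data known.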

Additional observations from a re-analysis of the deposited data

How the results depend on the processing

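Over the 16 alternatives, ZNF114 stayed higher, with log2 fold changes between 0.33 and 0.53, and lost its call in 4: limma on log2(FPKM + 1) with the filter (0.33) or without it (0.33), limma on log2(FPKM + 0.1) (0.48) and the fit without RBM24 library 1. The number of members called higher was 2 with no filter on low counts, 0 with limma at either pseudocount and with limma without a filter, and between 0 and 2 when a library was left out. The number called lower was 1 with no filter and 0 under every other alternative. The median log2 fold change of the members was 0.034 with total counts only, 0.016 with limma on log2(FPKM + 1), 0.030 with limma on log2(FPKM + 0.1), and between -0.0068 and 0.0055 when a library was left out. The difference of medians from protein-coding genes of like level was 0.02, and between 0.0076 and 0.031 when a library was left out. Leaving out 1 library turned the sign of ZNF121 (range -0.090 to 0.015), ZNF14 (-0.13 to 0.15), ZNF765 (-0.0081 to 0.15) and TRIM28 (-0.028 to 0.087), none of which was called. The cause was not tested. Of 443 values of 28 genes named in this text, 428 were counted as keeping their sign and their side of the threshold. For ZNF233, ZNF468, ZNF497, ZNF546 and ZNF888, which fall outside the naming rule, DESeq2 gave no adjusted p. Their DESeq2 values kept their sign and are among the 428. Libraries with the same number did not deviate together (correlations of 0.00724, 0.0555 and -0.000390), and none of the 3 correlated best with its own number. With the replicate block 1 member was called higher and 0 lower, as without it, and ZNF114 had a log2 fold change of 0.48 (edgeR adjusted p = 0.0186). Counts of 0 in a group limit a level only to 0.0164 CPM (RBM24) or 0.0173 CPM (control).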
